A study of Homo sapiens with 9 samples.

Results

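The interleukins and their receptors were examined in A431 cells that carried or had lost mutant p53. The genes were chosen by symbol: a gene of the deposited table belonged when its symbol was IL followed by a number, with or without further letters and digits. This gave 90 of 58051 genes, namely 40 ligands, 38 receptor chains, 6 antagonists or decoys, 1 enzyme (IL4I1, an amino acid oxidase named after interleukin 4) and 5 pseudogenes. IL7R was also among the genes that the study listed as changed in these libraries and measured again by qRT PCR, so its tests here are not independent evidence. By qRT PCR the paper found a significant change matching the sequencing only in VGLL1, SH3BGRL and RSAD2, so not in IL7R. The study's list gives IL7R a log2 fold change of 3.16, which is the value found here against Ctrl cells. Against parental cells the value here was 1.44. The study's list also holds CSF2, PYCARD and TNFAIP3, signalling genes described below, whose tests are likewise not independent evidence.

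The A431 line comes from an epidermoid carcinoma of the skin and makes mutant p53 (mutp53) from its own gene. Poly(A) RNA was sequenced from 3 groups with 3 libraries each. Parental cells were unmodified. Ctrl cells kept mutant p53 and had received an empty-vector GFP CRISPR construct, and p53 KO cells had received a GFP CRISPR construct against p53. All were cultured in DMEM with serum, were expanded from single colonies and were harvested 48 hours after settling, so each line may stand for few clones and a clonal difference cannot be told apart from the loss of p53. Replicates are separate libraries of a group. Whether they came from separate cultures is not stated, and p-values then measure only the spread between these libraries.

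Interleukins are secreted messengers between cells. Most bind a pair of receptor chains, of which 1 is often specific and the other is shared by several ligands. Receptors with a type I or II cytokine fold signal through Janus kinases and STAT proteins, whereas the IL-1 and IL-17 receptor families signal towards NF-kB. In skin, keratinocytes store IL-1 alpha and IL-18, make the IL-1 antagonist, and respond to IL-17, IL-20 and IL-22 family ligands made largely by leukocytes.

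The promoters of the 2 members with a log2 fold change over 1.5 in any comparison (IL7R and IL32), and of IL20RB, the member with the highest level per exon length in the mean over all 9 libraries, are shown. Each window runs from 250 bases before a RefSeq start site to 50 after it on the gene's strand, from RefSeq on GRCh38.p14. A window was found for 69 of the 90 members. Capitals mark matches on either strand to 6 motifs, which are those of AP-1, of STAT proteins (GAS), of interferon response (ISRE), of NF-kB, of p53 (a half-site) and of the core promoter. IL7R has 1 window (chr5:35856641-35856940, plus strand), IL20RB has 1 (chr3:136957733-136958032, plus strand) and IL32 has 2 (chr16:3065153-3065452 and chr16:3065534-3065833, plus strand).
IL7R: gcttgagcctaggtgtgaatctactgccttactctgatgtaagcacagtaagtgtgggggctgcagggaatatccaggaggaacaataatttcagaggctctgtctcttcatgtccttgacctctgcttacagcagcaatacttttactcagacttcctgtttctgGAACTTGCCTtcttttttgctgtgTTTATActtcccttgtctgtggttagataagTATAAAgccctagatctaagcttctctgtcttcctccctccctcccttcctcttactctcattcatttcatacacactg
IL20RB: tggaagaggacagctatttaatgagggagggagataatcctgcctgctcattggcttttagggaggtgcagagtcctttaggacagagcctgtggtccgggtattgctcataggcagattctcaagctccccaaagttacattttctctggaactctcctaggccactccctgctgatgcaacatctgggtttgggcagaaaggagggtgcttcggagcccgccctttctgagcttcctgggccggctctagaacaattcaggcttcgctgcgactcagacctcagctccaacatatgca
IL32, first window: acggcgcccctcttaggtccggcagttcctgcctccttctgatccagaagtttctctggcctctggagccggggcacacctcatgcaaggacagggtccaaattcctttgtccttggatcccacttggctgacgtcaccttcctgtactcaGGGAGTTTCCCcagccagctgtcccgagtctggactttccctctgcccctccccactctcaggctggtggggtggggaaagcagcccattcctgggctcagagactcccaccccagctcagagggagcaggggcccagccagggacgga
IL32, second window: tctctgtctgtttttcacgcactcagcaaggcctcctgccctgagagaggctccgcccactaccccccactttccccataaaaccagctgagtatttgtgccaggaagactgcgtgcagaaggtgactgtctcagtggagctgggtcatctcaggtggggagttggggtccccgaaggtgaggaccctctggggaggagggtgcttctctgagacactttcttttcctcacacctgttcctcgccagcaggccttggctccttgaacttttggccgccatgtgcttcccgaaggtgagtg
The IL7R window held the core promoter motif TATAAA on the plus strand from -29 to -24 and on the minus strand from -60 to -55, counted from the start site as 1, and a p53 half-site from -84 to -75. Of 35116 windows of the same length, 11.5% held TATAAA and 6.63% held a p53 half-site. The first IL32 window held NF-kB matches on both strands from -99 to -90 and from -98 to -89, and 5.91% of windows held that motif. The AP-1 motif, searched as TGANTCA, lay in 7.71% of all windows. The GAS motif, searched as TTCNNNGAA, lay in 7.66%, and the ISRE motif, searched as GAAANNGAAA, in 3.57%. The IL20RB window and the second IL32 window held no match, which says only that these letters are not in those windows. A match is a description of letters and not a site of binding, and the start sites that A431 cells use were not examined.

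Library totals ran from 19783778 to 29840452 counts. CPM are counts scaled to library size with edgeR's TMM factors. Ctrl replicate 1 stood apart from the other Ctrl libraries, with a median log2 difference of 0.249 on genes with an exon length of up to 3558 bases and -0.265 on genes of 8408 bases or more. For p53 KO replicate 3 these values were 0.14 and -0.121. Keratinocyte markers matched the label, with 9 of 10 above 3 counts in every library (KRT14 held 0 to 13 counts), and their summed level was 15700 to 18700 CPM in parental, 10300 to 12500 in Ctrl and 14600 to 15300 in p53 KO libraries. Most of that sum came from EGFR (169946 to 452758 counts), while KRT5 held 9650 to 17700 counts and SFN 10138 to 13432. Of 13 blood cell markers 7 were at 0 in every library, among them PTPRC, CD3E and TYROBP. The blood markers' summed level was 1.01 to 1.54 CPM in parental, 1.48 to 2.04 in Ctrl and 2.21 to 3.15 in p53 KO libraries, and most of it came from CD68 (15 to 42 counts) and LYZ (1 to 40 counts). Of 8 fibroblast markers 5 were at 0 (summed level 3.92 to 4.42 CPM in parental, 2.78 to 3.82 in Ctrl and 2.38 to 3.62 in p53 KO libraries), and of 5 endothelial markers 1 was (0.421 to 0.646, 0.816 to 1.16 and 0.436 to 0.57 CPM). The part of these in the results was not tested, and fewer cells of a type and less RNA per cell cannot be told apart in bulk RNA.

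Many interleukin genes were silent or nearly so, as were many genes of the whole table. Of the 90 members 25 had no count in any library, and 48 had 3 or fewer counts in every library. Of all 58051 genes, 27464 had at least 1 count over the 9 libraries. The filter on low counts passed 35.6% of the members and 14513 of the 58051 genes. A count of 0 allows up to 3 counts, which is 0.101 to 0.152 CPM by library and covers counting error only. The ligands at 0 in every library included IL2, IL3, IL4, IL13, IL17A, IL19, IL20, IL22 and IL24, and the receptor chains at 0 included IL2RA, IL3RA, IL10RA, IL12RB2 and IL17RB. The filter on low counts passed 32 members (9 of 40 ligands, 20 of 38 receptor chains and 3 of 6 antagonists or decoys), and 10 members that failed it had more than 3 counts in at least 1 library. These 10 were IL1R2, IL1RL1, IL2RB, IL2RG, IL4I1, IL6, IL7, IL37 (0 to 7 counts), IL1F10 (0 to 5 counts), which encodes an IL-1 family ligand also called IL-38, and the pseudogene IL9RP3 (2 to 10 counts). The ligands of several measured receptors were not detectable at this depth.

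**Figure D1:**
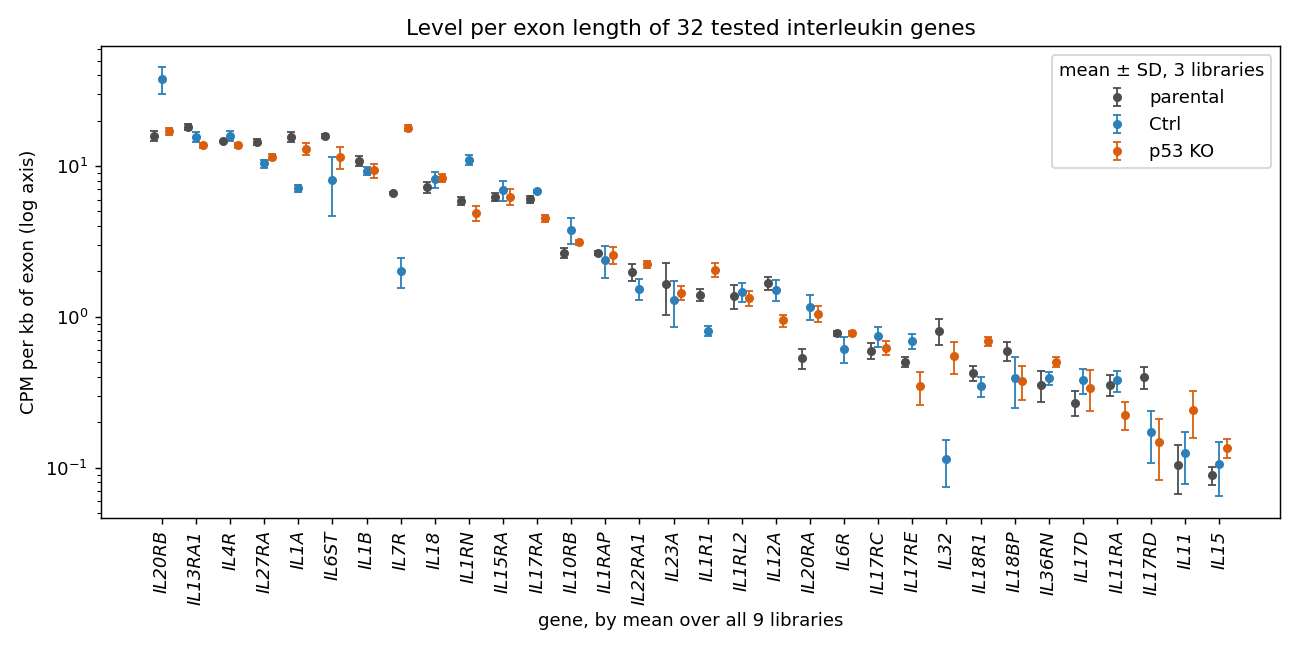
Level of the 32 tested interleukin genes per exon length. The y axis is CPM per kilobase of annotated exon on a log scale, and points with bars are the mean ± SD of 3 libraries in parental (grey), Ctrl (blue) and p53 KO (orange) cells. Genes are ordered by the mean over all 9 libraries, from IL20RB at 23.5 to the right-hand end, and IL7R has the 8th highest mean with its 3 groups far apart.

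Levels were compared between genes as CPM per kilobase of annotated exon. The highest mean over all 9 libraries was that of IL20RB, a receptor chain for IL-19, IL-20 and IL-24, at 23.5 (parental cells 15.9 ± 1.16, Ctrl cells 37.7 ± 7.43 and p53 KO cells 17.0 ± 0.899; SD, n = 3). Within groups the order differed, since IL13RA1 (18.2) lay above IL20RB in parental cells and IL7R (17.9) lay above it in p53 KO cells. In the mean over all libraries, IL20RB was followed by IL13RA1 at 15.8 and IL4R at 14.7, which together form a receptor for IL-4 and IL-13, by IL27RA at 12.1, a receptor chain for IL-27, and by IL1A at 12.0, which encodes IL-1 alpha. IL6ST, the signalling chain shared by the IL-6 family, had 11.8, IL1B had 9.84 and IL7R had 8.84. The ranges over libraries of neighbours in this order overlapped for each of these genes, so the order between neighbours is not set beyond their spread. IL7R moved most along it, with 2.00 ± 0.442 CPM per kilobase in Ctrl, 6.60 ± 0.0806 in parental and 17.9 ± 0.815 in p53 KO cells.

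The first question was which members differed in p53 KO cells from parental cells. IL7R, IL1R1, IL18R1 and IL20RA, all receptor chains, were higher, and IL12A, IL13RA1, IL17RA, IL17RD and IL27RA were lower. These were 4 of 32 tested members higher (12.5%) and 5 lower (15.6%) at an edgeR adjusted p of at most 0.05, where 9.77% of all 14513 genes tested were higher and 8.36% lower. No member also had a log2 fold change over 1.5 (background 1.23% higher and 0.717% lower), and edgeR gave 17 members at an unadjusted p under 0.05 (32% of all genes in either direction), of which 0 had such a change (2.02% of all genes). DESeq2 passed 9 members at an adjusted p of at most 0.05 (20.4% of all genes), 0 of them with such a change (2.00% of all genes). The median log2 fold change was -0.04 over the tested members and 0.01 over all genes, and the median size was 0.369 and 0.197.

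Against Ctrl cells, p53 KO cells had 6 members higher (18.8%: IL7R, IL32, IL1R1, IL18R1, IL1A and IL22RA1) and 6 lower (18.8%: IL1RN, IL20RB, IL17RE, IL11RA, IL12A and IL17RA), where 15% of all genes were higher and 14.2% lower. IL7R and IL32 also passed a log2 fold change of 1.5, which 2.18% of all genes did upwards and 1.11% downwards. The median log2 fold change was -0.04 over the members and 0.01 over all genes, and the median size was 0.303 and 0.23.

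Ctrl cells themselves differed from parental cells, although both carry mutant p53. In Ctrl cells 4 members were higher (12.5%: IL20RB, IL20RA, IL1RN and IL10RB) and 7 lower (21.9%: IL32, IL7R, IL17RD, IL1A, IL6ST, IL1R1 and IL27RA), where 10.6% of all genes were higher and 9.69% lower. IL32 and IL7R were lower by more than 1.5 on the log2 scale, which 1.27% of all genes were, and no member was higher by that much (0.668% of all genes). The median size of the log2 fold change was 0.349 over the members and 0.235 over all genes. The 3 comparisons share their libraries and are not independent of each other.

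Of the 32 tested members, 5 passed in the same direction against both controls. IL7R, IL1R1 and IL18R1 were higher in p53 KO cells than in parental and Ctrl cells (3 of 32, 9.38%, where 6.46% of all genes were), and IL12A and IL17RA were lower than in both (2 of 32, 6.25%, where 5.25% were). None had a log2 fold change over 1.5 in both comparisons (0.758% of all genes higher and 0.489% lower). The count rose from 5 to 9 without Ctrl replicate 1, with 3 higher and 6 lower, the added members being IL11RA, IL13RA1, IL17RE and IL1RN. IL7R, IL1R1, IL18R1, IL12A and IL17RA remained under each of the 17 alternative fits run.

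**Figure D2:**
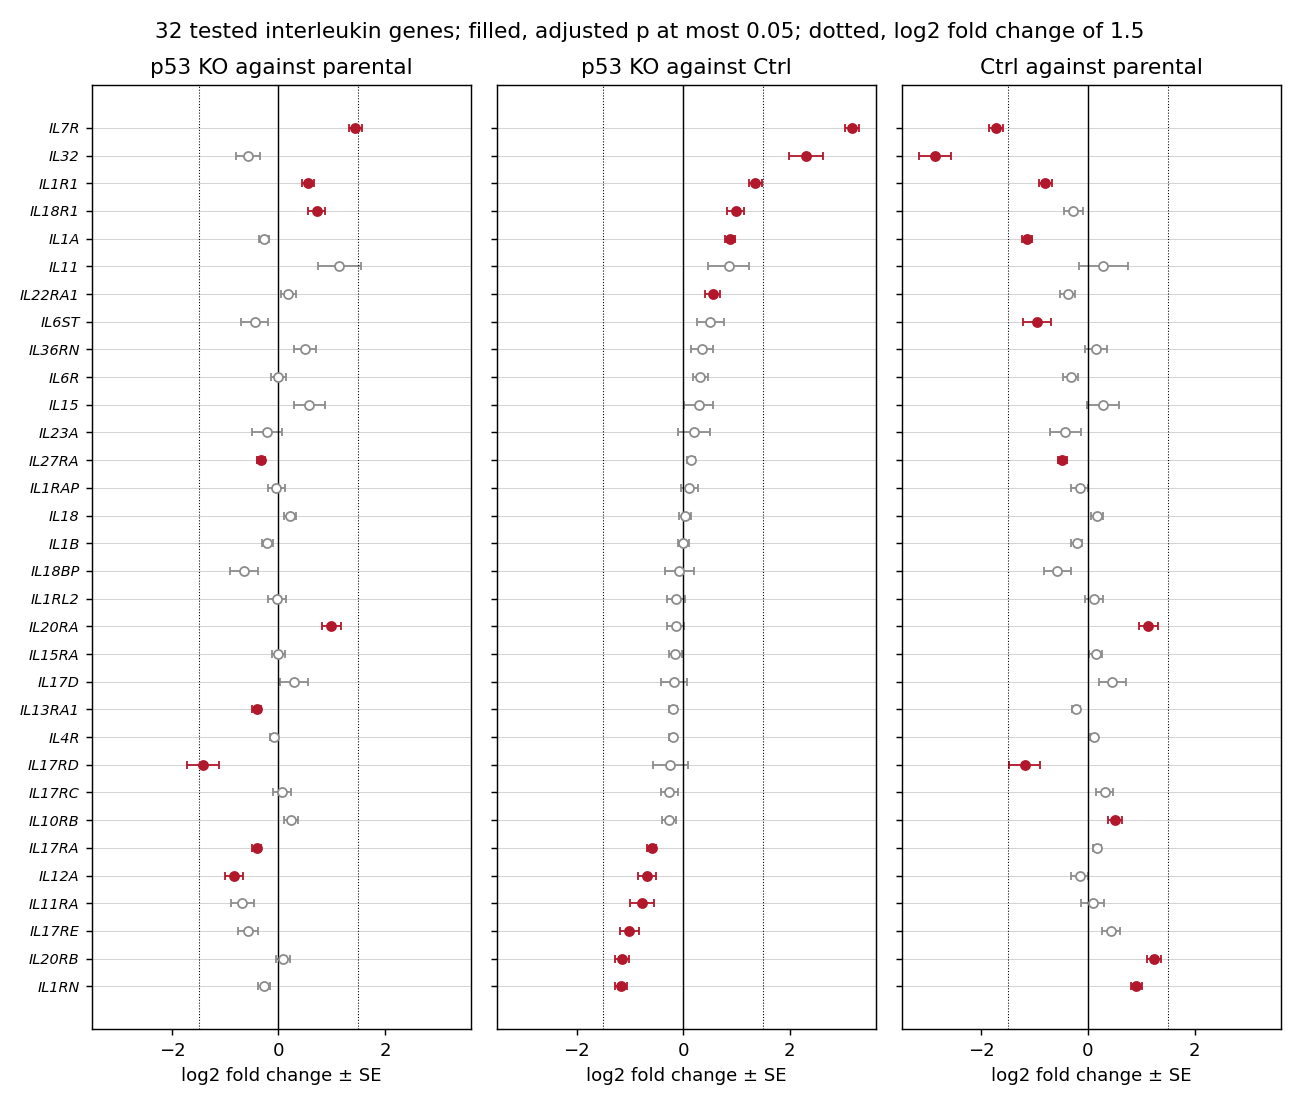
Log2 fold change ± SE (x axis) of the 32 tested interleukin genes (y axis, ordered by p53 KO against Ctrl) in each of the 3 comparisons. Filled red points have an edgeR adjusted p of at most 0.05, open grey points do not, and dotted lines mark 1.5. IL7R lies at 1.44, 3.16 and -1.72, and IL32 passes the dotted lines only in the comparisons with Ctrl cells.

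IL7R (chr5:35852695-35879603, plus strand, GRCh38) encodes the alpha chain of the IL-7 receptor, known for its part in lymphocyte development, and the same chain serves the epithelial cytokine TSLP. It had 40.3, 39.5 and 39.5 CPM in parental, 9.08, 12.7 and 14.3 CPM in Ctrl, and 110, 111 and 102 CPM in p53 KO libraries. The 3 groups did not overlap, with Ctrl lowest and p53 KO highest. IL7R was 2.71-fold higher in p53 KO than in parental cells (log2 fold change 1.44, SE 0.12, edgeR adjusted p = 3.4e-05) and 8.92-fold higher than in Ctrl cells (log2 fold change 3.16, SE 0.13, edgeR adjusted p = 9.09e-08). In Ctrl cells it fell to 0.304 of the parental level (log2 fold change -1.72, SE 0.13, edgeR adjusted p = 1.5e-05). Both control groups carry mutant p53. Its 18 tested neighbours within 2 Mb had a median log2 fold change of -0.04, 0.01 and -0.18 in the 3 comparisons.

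The partners of IL7R were near the limit of detection. IL7, its ligand, held 0 to 5 counts per library, and IL2RG, the common gamma chain that completes the IL-7 receptor, held 0 to 4. JAK3, the kinase bound by that chain, held 2 to 6 counts, while JAK1, which binds the alpha chain, had 93.2 to 140 CPM. CRLF2, the second chain of the TSLP receptor, held 12, 8 and 6 counts in p53 KO libraries, 2, 1 and 0 in parental and 0, 0 and 0 in Ctrl libraries. Its p53 KO counts lay above all others but were too few for the filter, and no test was made. TSLP held 4, 9 and 9 counts in Ctrl and 1 or 2 in every other library, and it was not tested either.

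IL1R1 (chr2:102064544-102179874, plus strand) encodes the signalling receptor for both forms of IL-1. It had 9.18, 11.0 and 9.78 CPM in parental, 5.40, 5.59 and 6.21 CPM in Ctrl, and 15.4, 15.5 and 12.9 CPM in p53 KO libraries. As for IL7R, the groups did not overlap and Ctrl was lowest. The log2 fold change was 0.55 against parental (SE 0.11, edgeR adjusted p = 0.00537), 1.35 against Ctrl (SE 0.12, adjusted p = 1.23e-05) and -0.80 in Ctrl against parental cells (SE 0.12, adjusted p = 0.00112). The accessory chain IL1RAP had 28.9 to 30.8 CPM in parental, 19.4 to 31.5 in Ctrl and 24.8 to 32.1 in p53 KO libraries and passed in no comparison. IL1R2, the decoy receptor that binds IL-1 without signalling, held 11, 9 and 16 counts in p53 KO, 3, 5 and 6 in parental and 2, 1 and 2 in Ctrl libraries, with no overlap between groups, but did not pass the filter on low counts.

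The IL-1 ligands did not move together. IL1A (chr2:112773925-112784493, minus strand) had 32.6, 33.4 and 29.1 CPM in parental, 13.6, 15.2 and 14.2 CPM in Ctrl, and 28.9, 25.7 and 24.4 CPM in p53 KO libraries. Ctrl libraries lay far below both other groups. Fitted log2 fold changes were -1.14 in Ctrl against parental cells (SE 0.10, edgeR adjusted p = 2.71e-05) and 0.88 in p53 KO against Ctrl cells (SE 0.10, adjusted p = 6.71e-05), while against parental cells it was -0.27 (SE 0.09, adjusted p = 0.072). IL1B, which encodes IL-1 beta and lies close by on the chromosome, had 24.9 to 35.1 CPM over all 9 libraries and log2 fold changes of -0.21, 0.00 and -0.21, none of which passed.

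IL1RN (chr2:113099315-113134016, plus strand) encodes the IL-1 receptor antagonist, which occupies IL1R1 without signalling. It had 20.7, 21.5 and 23.5 CPM in parental, 44.9, 39.7 and 38.8 CPM in Ctrl, and 18.3, 16.0 and 20.4 CPM in p53 KO libraries. Ctrl libraries were highest here, the reverse of IL1A and IL1R1. Its log2 fold change was 0.91 in Ctrl against parental cells (SE 0.10, edgeR adjusted p = 0.000208) and -1.17 in p53 KO against Ctrl cells (SE 0.11, adjusted p = 1.66e-05), and -0.27 against parental cells (SE 0.11, adjusted p = 0.111). Within each library, IL1RN per exon length relative to the sum of IL1A and IL1B was 0.205, 0.217 and 0.242 in parental, 0.739, 0.613 and 0.661 in Ctrl, and 0.200, 0.204 and 0.253 in p53 KO libraries. These ratios were formed after the values were seen and carry no test.

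**Figure D3:**
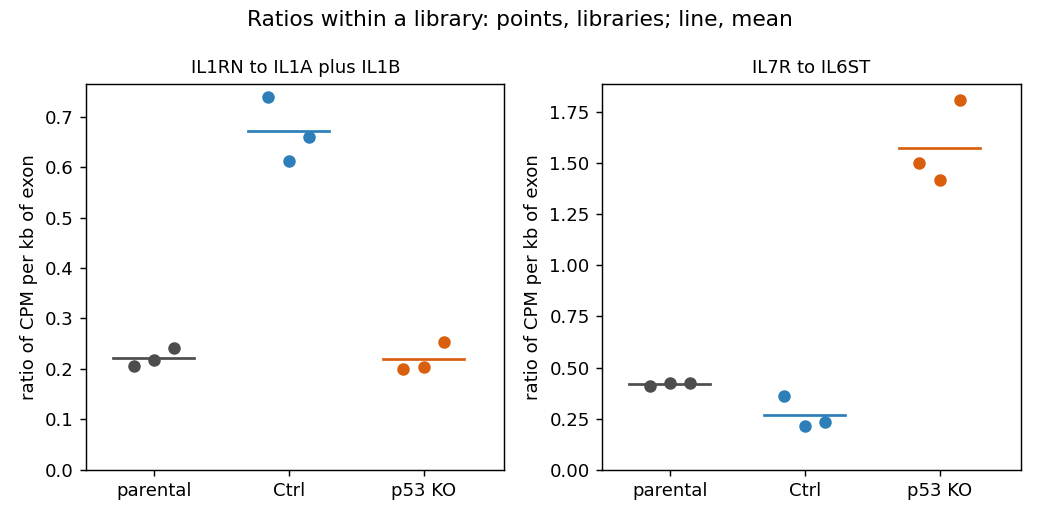
Ratios within each library of CPM per kilobase of exon (y axes) by group, with 1 point per library and a line at the mean. IL1RN relative to IL1A plus IL1B lies between 0.613 and 0.739 in Ctrl and between 0.200 and 0.253 in the other libraries, and IL7R relative to IL6ST lies between 1.42 and 1.81 in p53 KO and between 0.215 and 0.423 in the other libraries.

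IL18R1 (chr2:102311529-102398777, plus strand) encodes the chain that binds IL-18. It had 1.68 to 2.12 CPM in parental, 1.37 to 1.83 in Ctrl and 2.88 to 3.27 in p53 KO libraries, with p53 KO above all others. On the log2 scale the difference was 0.72 against parental (SE 0.16, edgeR adjusted p = 0.00884) and 0.99 against Ctrl cells (SE 0.16, adjusted p = 0.000892). Its signalling partner IL18RAP held 0 or 1 count in every library. The ligand IL18 had 17.5 to 23.2 CPM over all libraries, and its binding protein IL18BP had 1.48 to 3.90 CPM. Neither passed in any comparison. IL18R1 shares exon sequence on the same strand with IL1RL1, the IL-33 receptor chain (0 to 6 counts), and IL18BP shares exon sequence with NUMA1 on the opposite strand. Strand cannot assign the reads that IL18R1 and IL1RL1 share. For IL18BP and NUMA1, the strand setting of the counting is not given in the sources used here. The shared reads of neither pair can be told apart here.

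Among the antagonists, IL36RN, which blocks the IL-36 receptor, had 0.830 to 1.74 CPM and passed in no comparison. The IL-36 receptor chain IL1RL2 was measured at 3.18 to 4.46 CPM and did not pass either. The ligands IL36A, IL36B and IL36G held 0 to 2 counts. IL33 held 0 or 1.

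IL32 (chr16:3065297-3082192, plus strand) encodes a cytokine that induces other inflammatory cytokines. It had 3.06, 2.04 and 2.72 CPM in parental, 0.510, 0.281 and 0.305 CPM in Ctrl, and 1.88, 1.29 and 2.13 CPM in p53 KO libraries. The Ctrl libraries were lowest, with 10, 8 and 8 counts, and parental and p53 KO libraries overlapped. In log2 units it differed by -2.87 in Ctrl against parental (SE 0.30, edgeR adjusted p = 0.000124), 2.30 in p53 KO against Ctrl (SE 0.32, adjusted p = 0.000324) and -0.57 in p53 KO against parental cells (SE 0.23, adjusted p = 0.112). It drops out where at least 10 counts are required in every library.

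IL20RB (chr3:136946230-137011085, plus strand) and IL20RA encode the chains of a receptor for IL-19, IL-20 and IL-24, which act on keratinocytes. IL20RB had 35.8, 41.2 and 40.0 CPM in parental, 112, 86.9 and 77.1 CPM in Ctrl, and 43.5, 39.1 and 41.7 CPM in p53 KO libraries. Only the Ctrl libraries stood apart. The log2 fold change was 1.24 in Ctrl against parental (SE 0.13, edgeR adjusted p = 0.000102), -1.15 in p53 KO against Ctrl (SE 0.13, adjusted p = 6.69e-05) and 0.09 in p53 KO against parental cells (SE 0.13, adjusted p = 0.67). IL20RB shares exon sequence with NCK1 on the same strand, and NCK1 held 818 to 1657 counts. Its 19 tested neighbours within 2 Mb had a median log2 fold change of 0.05 in Ctrl against parental, -0.39 in p53 KO against Ctrl and -0.20 in p53 KO against parental cells.

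IL20RA (chr6:136999971-137045180, minus strand) had 2.10, 2.85 and 2.58 CPM in parental, 6.73, 5.06 and 4.80 CPM in Ctrl, and 5.64, 4.68 and 4.56 CPM in p53 KO libraries. Here both edited lines lay above the parental libraries and overlapped each other. Fitted log2 fold changes were 0.99 in p53 KO against parental (SE 0.18, edgeR adjusted p = 0.00284), 1.13 in Ctrl against parental (SE 0.18, adjusted p = 0.00148) and -0.14 between p53 KO and Ctrl cells (SE 0.16, adjusted p = 0.572). The third chain of this group, IL22RA1, which also serves IL-22, was higher in p53 KO than in Ctrl cells (log2 fold change 0.55, SE 0.14, edgeR adjusted p = 0.013). Its partner in the IL-22 receptor, IL10RB, was higher in Ctrl than in parental cells (log2 fold change 0.51, SE 0.13, edgeR adjusted p = 0.0206). The IL10RB call was lost without parental replicate 1 (adjusted p = 0.0934) or parental replicate 2 (0.0694). It was also lost with a replicate block (0.0526) and with only the 2 groups compared (0.0543). The ligands IL19, IL20, IL22 and IL24 had no count in any library.

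Of the IL-17 receptor chains, IL17RA, which is shared by the family, was lower in p53 KO cells than in both controls. It had 53.7 to 59.6 CPM in parental, 61.6 to 65.0 in Ctrl and 39.7 to 44.2 in p53 KO libraries. This gave a log2 fold change of -0.41 against parental (SE 0.08, edgeR adjusted p = 0.0033) and -0.59 against Ctrl cells (SE 0.08, adjusted p = 0.000185). IL17RC, its partner for IL-17A and IL-17F, had 2.37 to 3.67 CPM and passed in no comparison. IL17A was at 0, and IL17F and IL17C held 0 or 1 count.

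IL17RE (chr3:9902612-9916402, plus strand) encodes the chain for IL-17C. It had 2.41, 2.50 and 2.17 CPM in parental, 3.67, 3.02 and 3.01 CPM in Ctrl, and 1.34, 1.45 and 2.08 CPM in p53 KO libraries. The groups did not overlap, although p53 KO replicate 3 came close to the parental libraries. On the log2 scale the difference was -1.01 in p53 KO against Ctrl (SE 0.18, edgeR adjusted p = 0.00171), -0.57 in p53 KO against parental (SE 0.19, adjusted p = 0.0607) and 0.44 in Ctrl against parental cells (SE 0.17, adjusted p = 0.0924). Without p53 KO replicate 3, the difference from parental cells was -0.77 (edgeR adjusted p = 0.021).

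IL17RD (chr3:57089982-57170306, minus strand) encodes a relative of these chains that is also known to restrain fibroblast growth factor signalling. It had 4.55, 3.42 and 3.51 CPM in parental, 1.02, 1.65 and 2.29 CPM in Ctrl, and 1.24, 2.09 and 0.893 CPM in p53 KO libraries. Parental libraries were highest, and the edited lines overlapped. In log2 units it differed by -1.42 in p53 KO against parental (SE 0.30, edgeR adjusted p = 0.00722), -1.18 in Ctrl against parental (SE 0.29, adjusted p = 0.0177) and -0.24 between p53 KO and Ctrl cells (SE 0.33, adjusted p = 0.639). The Ctrl difference lost its call without parental replicate 1 (adjusted p = 0.0811) or Ctrl replicate 2 (0.054), and the difference between p53 KO and Ctrl cells was 0.05 without Ctrl replicate 3.

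**Figure D4:**
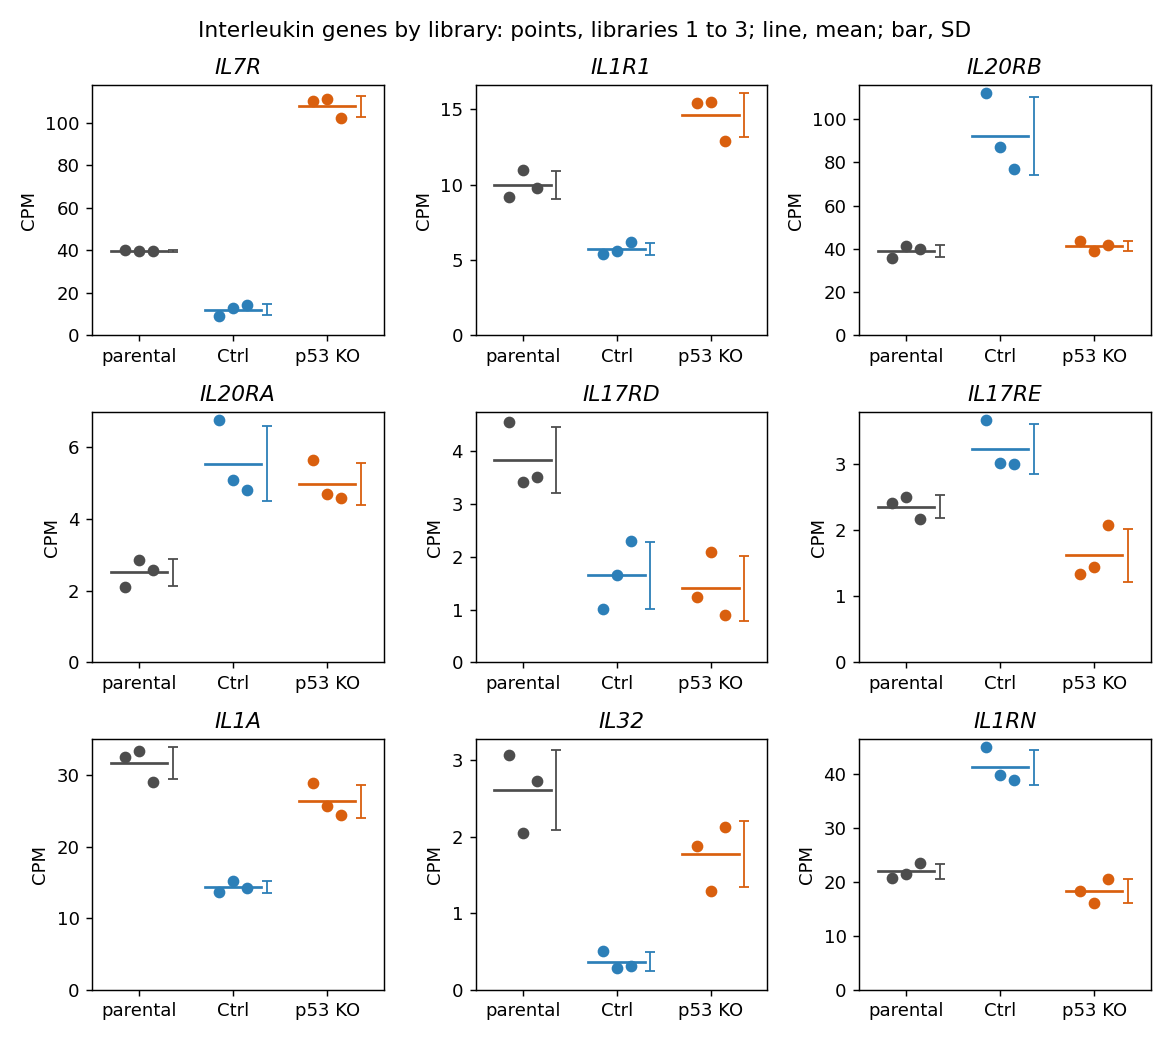
CPM (y axes, from 0) of the 9 interleukin genes with an adjusted p of at most 0.05 and a log2 fold change of at least 1 in any comparison. Points are libraries 1 to 3 of each group, lines are means and bars are SDs. The Ctrl libraries are the lowest group for IL7R, IL1R1, IL1A and IL32 and the highest for IL20RB, IL17RE and IL1RN, and the p53 KO libraries are the highest group for IL7R and IL1R1.

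IL12A encodes a subunit of IL-12 and IL-35. It had 2.91 to 3.56 CPM in parental, 2.49 to 3.43 in Ctrl and 1.71 to 2.03 in p53 KO libraries, with p53 KO below all others. The log2 fold change was -0.83 against parental (SE 0.17, edgeR adjusted p = 0.0055) and -0.68 against Ctrl cells (SE 0.17, adjusted p = 0.0104). Its partner subunits IL12B (0 or 1 count) and EBI3 (0 to 3 counts) were not tested. Its antisense gene IL12A-AS1 held 0 to 5 counts. The 20 tested genes within 2 Mb of IL12A had a median log2 fold change of -0.27 and -0.35 in these comparisons, so its neighbourhood lay lower as well.

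In the IL-6 family, IL6ST had 197, 187 and 187 CPM in parental, 50.2, 119 and 124 CPM in Ctrl, and 147, 157 and 113 CPM in p53 KO libraries. The lowest value belonged to Ctrl replicate 1, the library with fewer counts on long genes, and IL6ST has 12060 bases of exon. IL6ST was lower in Ctrl than in parental cells (log2 fold change -0.96, SE 0.26, edgeR adjusted p = 0.0272). Without Ctrl replicate 1 the difference was -0.65 (adjusted p = 0.000461). The call was lost without any single parental library (adjusted p = 0.0857, 0.0687 and 0.0715) or with only the 2 groups compared (0.0556). All p53 KO libraries lay below the parental ones, but this difference did not pass (-0.45, SE 0.26, adjusted p = 0.263). It passed without Ctrl replicate 1 (-0.45, 0.00159), and without that library and p53 KO replicate 3 (-0.33, 0.000297). Against Ctrl cells, p53 KO cells differed by 0.51 (SE 0.26, adjusted p = 0.172), and by 0.33 without both libraries (0.000432). With the exon length trend removed, neither passed (0.24 and 0.0645). Of the chains that pair with IL6ST, IL6R had 3.42 to 5.71 CPM and passed in no comparison. IL27RA was lower in p53 KO (log2 fold change -0.33, SE 0.08, edgeR adjusted p = 0.015) and in Ctrl (-0.48, SE 0.08, adjusted p = 0.00219) than in parental cells. IL11RA was lower in p53 KO than in Ctrl cells (-0.77, SE 0.22, edgeR adjusted p = 0.022). The IL27RA call against parental was lost without parental replicate 1 (adjusted p = 0.0772), p53 KO replicate 1 (0.071) or p53 KO replicate 2 (0.0613), and the IL11RA call without Ctrl replicate 2 (0.0692), p53 KO replicate 1 (0.102) or p53 KO replicate 2 (0.0503). Among ligands, IL6 held 6, 7 and 8 counts in p53 KO, 3, 5 and 2 in parental and 0, 0 and 1 in Ctrl libraries and was not tested. Its exons overlap those of STEAP1B on the opposite strand (72 to 160 counts). IL11 had 0.185 to 0.837 CPM and passed in no comparison.

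The receptor chains of IL-4 and IL-13 were among the most abundant and moved little. IL4R had 77.3 to 101 CPM and passed in no comparison. IL13RA1 had 81.1 to 89.0 CPM in parental, 66.8 to 76.6 in Ctrl and 60.7 to 66.3 in p53 KO libraries, and was lower in p53 KO than in parental cells (log2 fold change -0.41, SE 0.08, edgeR adjusted p = 0.00424). IL15 (0.510 to 1.24 CPM), its receptor chain IL15RA (20.0 to 27.4 CPM), IL17D (0.784 to 1.68 CPM) and IL23A (1.16 to 2.72 CPM) passed in no comparison. Exons of IL17D overlap those of RP11-172H24.4 on the opposite strand (114 to 189 counts). IL4I1, the enzyme, held 13, 6 and 9 counts in p53 KO, 5, 3 and 5 in parental and 1, 1 and 0 in Ctrl libraries, and was not tested. Its exons overlap those of NUP62 and ATF5, both of them well expressed (at least 736 counts in every library).

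Other genes of interleukin signalling were taken from 6 lists with 88 genes in all, of which 75 were tested. In p53 KO against parental cells 12 were higher (16%, where 9.77% of all genes were) and 4 lower (5.33%, against 8.36%). In p53 KO against Ctrl cells 25 were higher (33.3%, against 15% of all genes) and 9 lower (12%, against 14.2%). In Ctrl against parental cells 7 were higher (9.33%, against 10.6%) and 20 lower (26.7%, against 9.69%). The lists were chosen with earlier results of these data known, and these shares carry no test. The median log2 fold change over the tested genes was 0.06, 0.12 and -0.14. By list, p53 KO against Ctrl gave 5 higher and 3 lower of 11 tested partners without an IL symbol, 1 and 2 of 9 Janus kinases and STATs, 4 and 1 of 15 SOCS proteins and other inhibitors, 8 and 1 of 20 transducers of IL-1 and IL-18, 5 and 2 of 12 genes of IL-1 and IL-18 processing, and 2 and 0 of 8 transducers of IL-17. Against parental cells these were 3 and 0, 0 and 2, 0 and 1, 1 and 0, 4 and 1, and 4 and 0. In Ctrl against parental cells they were 0 and 3, 0 and 1, 1 and 6, 1 and 6, 4 and 4, and 1 and 0.

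CSF2 and CSF2RA belong to the family of IL-3 and IL-5. CSF2, which encodes the cytokine GM-CSF, held 16, 26 and 23 counts in parental, 6, 5 and 6 in Ctrl, and 55, 65 and 59 in p53 KO libraries, and its groups did not overlap. It was higher in p53 KO cells than in parental (log2 fold change 1.43, SE 0.25, edgeR adjusted p = 0.0027) and Ctrl cells (3.35, SE 0.32, adjusted p = 2.96e-05), and lower in Ctrl than in parental cells (-1.92, SE 0.38, adjusted p = 0.00636), the same order as IL7R. CSF2RA, the alpha chain of the GM-CSF receptor, held 142, 94 and 85 counts in p53 KO libraries and 0 or 1 in every other library. Against a floor of 3 counts in each library, p53 KO cells held at least 34.1-fold more of it than parental and at least 33.7-fold more than Ctrl cells (edgeR adjusted p = 2.89e-06 and 1.15e-06). CSF2RA passed the filter on low counts only through its p53 KO libraries, so these adjusted p are no separate support for the difference. The common chain CSF2RB held 0 or 1 count. CRLF2 (chrX:1190490-1212723), CSF2RA (chrX:1268800-1310381) and IL3RA (chrX:1336616-1382689) follow each other in the pseudoautosomal region, and IL3RA, the third of them, had no count in any library.

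CXCL8, which encodes the chemokine once named interleukin 8, held 34, 21 and 13 counts in p53 KO, 10, 3 and 7 in parental and 2, 1 and 6 in Ctrl libraries. It was higher in p53 KO cells than in parental (log2 fold change 1.68, SE 0.44, edgeR adjusted p = 0.0228) and Ctrl cells (2.81, SE 0.52, adjusted p = 0.00199). CXCL8 too passed the filter on low counts only through its p53 KO libraries, so these adjusted p are no separate support for the difference. The call against parental cells was lost in 4 of the 15 alternative fits. CTF1, a ligand of the IL-6 family, was lower in p53 KO than in Ctrl cells (-1.27, SE 0.33, edgeR adjusted p = 0.0139), a call lost in 2 of 16.

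Genes that mature IL-1 beta and IL-18 differed in opposite directions in Ctrl cells. PYCARD, the inflammasome adaptor, had 3.10, 3.69 and 3.09 CPM in parental, 0.612, 0.386 and 0.381 CPM in Ctrl, and 4.19, 3.69 and 4.02 CPM in p53 KO libraries. It was lower in Ctrl than in parental cells (log2 fold change -2.87, SE 0.21, edgeR adjusted p = 1.01e-05) and higher in p53 KO than in Ctrl cells (3.14, SE 0.20, adjusted p = 1.59e-06). NLRP1, an inflammasome sensor of keratinocytes, was lower in Ctrl (-1.51, SE 0.12, edgeR adjusted p = 1.86e-05) and in p53 KO (-0.54, SE 0.11, adjusted p = 0.00776) than in parental cells. CASP1, the protease that cleaves both cytokines, had 2.10, 2.00 and 2.63 CPM in parental, 9.28, 8.68 and 9.57 CPM in Ctrl, and 5.27, 5.32 and 4.32 CPM in p53 KO libraries, so both edited lines lay above parental cells (log2 fold change 2.04 in Ctrl, SE 0.14, and 1.16 in p53 KO cells, SE 0.14, edgeR adjusted p = 6.6e-06 and 0.000343). GSDME, a pore-forming protein of the gasdermin family, was higher in p53 KO than in Ctrl cells (1.15, SE 0.08, edgeR adjusted p = 3.02e-06) and than in parental cells (0.35, SE 0.08, adjusted p = 0.0107), the latter call being lost in 2 of 16 alternative fits (highest adjusted p = 0.0671).

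Among inhibitors, SOCS2, which dampens cytokine receptor signalling, was lower in Ctrl than in parental cells (log2 fold change -0.94, SE 0.11, edgeR adjusted p = 0.000214) and higher in p53 KO than in Ctrl cells (1.20, SE 0.11, adjusted p = 1.64e-05). TNFAIP3, an inhibitor of NF-kB signalling, had 12.6, 9.31 and 10.3 CPM in parental, 2.29, 3.90 and 4.42 CPM in Ctrl, and 12.3, 12.7 and 10.8 CPM in p53 KO libraries. It was lower in Ctrl than in parental cells (-1.57, SE 0.20, edgeR adjusted p = 0.000362) and higher in p53 KO than in Ctrl cells (1.73, SE 0.20, adjusted p = 7.93e-05). PTPN6, a phosphatase that acts on cytokine receptors, was higher in Ctrl than in parental cells (1.00, SE 0.11, edgeR adjusted p = 0.000129) and lower in p53 KO than in Ctrl cells (-0.89, SE 0.11, adjusted p = 0.000117). TAB3, a transducer of IL-1 signals, was lower in Ctrl than in parental cells (-1.30, SE 0.22, edgeR adjusted p = 0.00235), was higher in p53 KO than in Ctrl cells (1.03, SE 0.22, adjusted p = 0.00444), and had its lowest value, 18.6 CPM, in Ctrl replicate 1. SOCS2, TNFAIP3, PTPN6 and TAB3 did not pass between p53 KO and parental cells (adjusted p = 0.104, 0.585, 0.506 and 0.417).

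**Figure D5:**
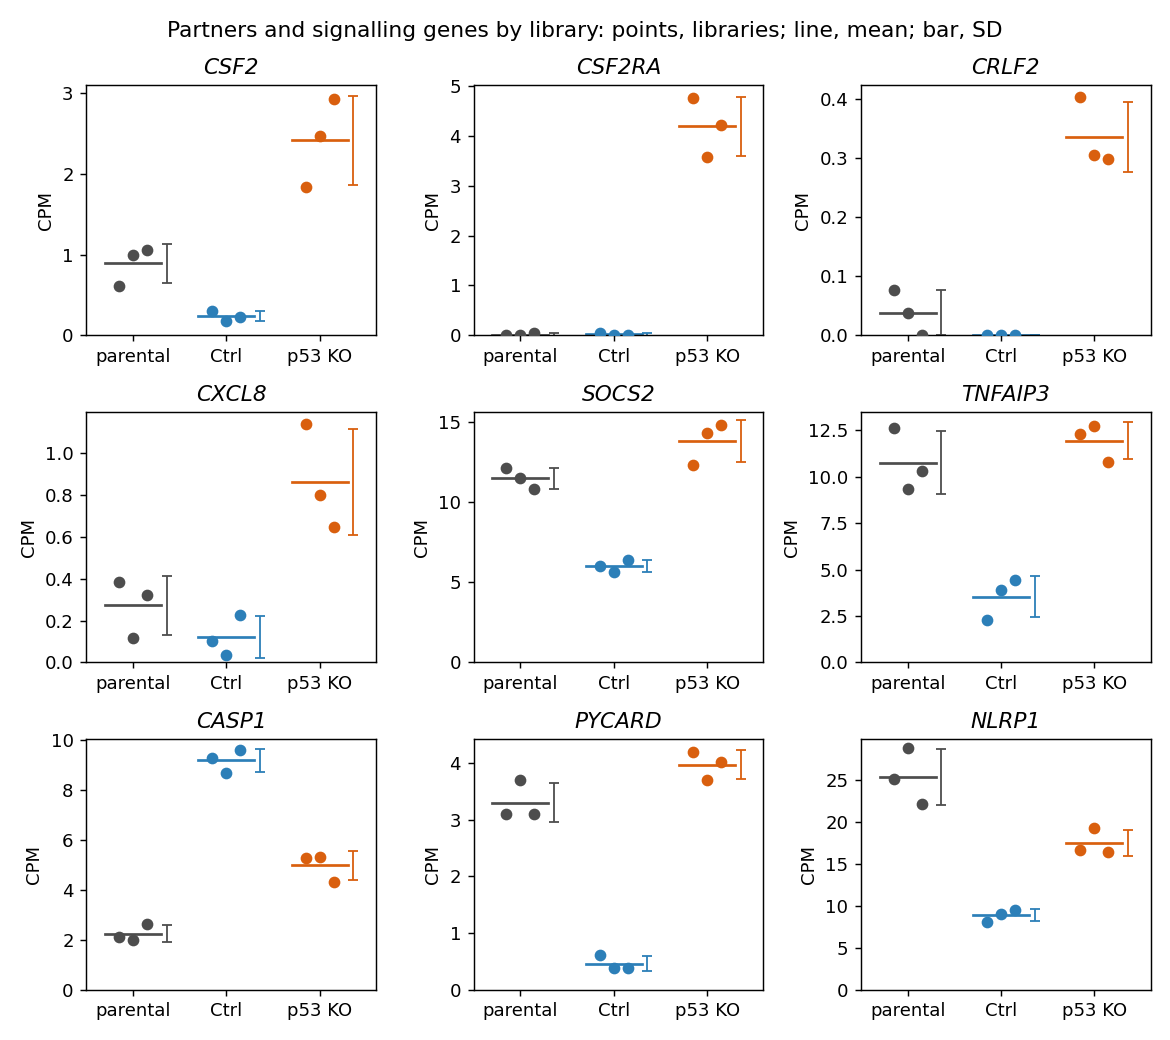
CPM (y axes, from 0) of 9 partner and signalling genes by group. Points are libraries 1 to 3, lines are means and bars are SDs. CSF2RA and CRLF2 lie above the other libraries in each p53 KO library, while SOCS2, TNFAIP3, PYCARD and NLRP1 are lowest and CASP1 is highest in the Ctrl libraries.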

How the data were processed

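Poly(A) RNA-Seq libraries of A431 parental, Ctrl and p53 KO cells (3 each) were prepared with a strand-specific kit. The authors aligned the reads to GRCh38 with STAR 2.5.1b, counted them per gene with featureCounts on an Ensembl annotation and deposited raw counts, whole numbers without normalization. Strand setting and treatment of reads that match several genes are not given in the sources used here. Library totals were 19783778 to 29840452 counts.

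Groups were compared by edgeR 4.0.16 in R 4.3.3 (filterByExpr by group with a minimum count of 10, TMM, a quasi-likelihood model of all 9 libraries, Benjamini-Hochberg adjustment over 14513 genes). SEs follow from the F statistic. A gene passed at an adjusted p of at most 0.05. CPM use TMM-scaled totals. Exon lengths and positions come from GENCODE 44, in which all 90 members were found. The level of the targeted gene is not reported here.

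Members, gene lists (compiled from textbook knowledge) and the rule for named genes were chosen with earlier results of these data known. Named were members and listed genes with an adjusted p of at most 0.05 and a log2 fold change of at least 1 in any comparison, members above 10 counts in every library of 1 group and at most 3 in another, the partners of members so named, and the 5 members with the highest level per length; other members are named where they were counted. Alternatives were DESeq2 1.42.0, its size factors in edgeR, 2 other filters, a replicate block, fits of 2 groups, a log2 fold change of 1 and each library left out; leaving out Ctrl replicate 1 and p53 KO replicate 3 together and removing the trend with exon length were added after seeing the data. Figures were drawn with matplotlib 3.10.9.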

Additional observations from a re-analysis of the deposited data

Results flagged for a closer look

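For 6 members and 3 named genes of interleukin signalling, all p53 KO and all Ctrl libraries lay on opposite sides of the parental libraries, each in 3 of 3 libraries. The share of all genes tested with this order was not computed, so these numbers say nothing about interleukin genes as a set. The difference itself, p53 KO against Ctrl, is given on the log2 scale. The genes were picked by the order of these same libraries, so their adjusted p are no separate support for the difference. Higher in p53 KO cells were IL7R at 3.16 (SE 0.13, edgeR adjusted p = 9.09e-08) and IL1R1 at 1.35 (SE 0.12, adjusted p = 1.23e-05), the 2 of these members that also passed against parental cells in both edited lines. Lower in p53 KO cells were IL1RN at -1.17, IL17RE at -1.01 and IL17RA at -0.59, which passed (edgeR adjusted p = 1.66e-05, 0.00171 and 0.000185), while IL4R was at -0.20 and did not pass (adjusted p = 0.067). Of the other genes, CSF2 was at 3.35, SOCS2 at 1.20 and GSDME at 1.15, and each was higher in p53 KO cells (edgeR adjusted p = 2.96e-05, 1.64e-05 and 3.02e-06).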

How the results depend on the processing

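For IL7R, the direction and the call held in all 3 comparisons under each of 14 alternatives, at log2 fold changes of 1.42 to 1.48 against parental, 3.00 to 3.29 against Ctrl and -1.85 to -1.56 in Ctrl against parental cells. In p53 KO against parental cells, the 9 members that passed became 17 when only the 2 groups compared were fitted and 14 without Ctrl replicate 1 and p53 KO replicate 3, and were 8 to 10 with single libraries left out. The count with a log2 fold change over 1.5 was 0 to 1 with single libraries left out (IL17RD, without parental replicate 2 or p53 KO replicate 2) and 2 at a log2 fold change of at least 1. For p53 KO against Ctrl it went from 2 to 5 with no filter beyond 1 count (IL1R2, IL6 and IL4I1 added), 1 with at least 10 counts in every library and 6 at a log2 fold change of at least 1, and for Ctrl against parental cells from 2 to 1 with at least 10 counts and 6 at a log2 fold change of at least 1. Against both controls the 5 members became 8 with only the 2 groups compared, 5 to 9 with single libraries left out (9 without Ctrl replicate 1) and 9 with both libraries left out, and the count over 1.5 went from 0 to 1 at a log2 fold change of at least 1. Values near 0 changed sign for IL17RD in p53 KO against Ctrl (-0.24, but -0.63 to 0.05 with single libraries left out) and for IL20RA (-0.14, but -0.25 to 0.02, and 0.07 with both libraries left out). The cause of these changes was not tested.

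No pairing of libraries by replicate number was seen, although a check on 3 libraries per group cannot exclude one. Deviations from the group means correlated at -0.75 to 0.26 between libraries with the same number, and a replicate block gave 8, 12 and 10 members in place of 9, 12 and 11. The calls lost under the block were IL27RA in p53 KO against parental (edgeR adjusted p = 0.0521) and IL10RB in Ctrl against parental cells (0.0526). Depth limits the 58 members that were not tested.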
